A study of Homo sapiens with 14 samples.

Results

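Messenger RNA levels of 48 translation initiation and elongation factor genes were followed in 293 Flip-In T-REx cells, which derive from human embryonic kidney and have a site for inserting a transgene. The genes were taken by name from the EIF and EEF families, 48 of 22410 genes in the deposited tables, and the transcript with the highest mean level stood for each gene. All 48 passed the filter on low counts, after which 16418 genes were tested. The lowest count of a member in any library was 924, for EEF2K.

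Initiation factors bring the small ribosomal subunit and the initiator tRNA to the capped end of an mRNA, scan to the start codon and join the large subunit. Elongation factors then deliver aminoacyl-tRNAs and move the ribosome along. Many of the genes for the translation machinery make TOP mRNAs, which begin with a cytosine followed by a run of pyrimidines (a terminal oligopyrimidine tract) and whose translation is controlled through mTORC1 and LARP1. Among the members, 15 were set apart as TOP genes from general knowledge of this class: EEF1A1, EEF1B2, EEF1D, EEF1G, EEF2, EIF2S3, EIF3A, EIF3E, EIF3F, EIF3G, EIF3H, EIF3K, EIF3L, EIF3M and EIF4B. The other 33 served as the comparison. The TOP list was made with earlier results of these data known. Differences between TOP and other members are therefore a description and not an independent test.

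The 14 polyadenylated RNA libraries formed 7 groups of 2. The ctrl line carried an empty vector. The other lines expressed a SNAP-ADAR, a SNAP tag joined to a deaminase domain, from ADAR in SA1 and from ADARB1 in SA2, which edits adenosine to inosine at sites chosen by a guide RNA that bonds to the tag. SA1Q carries the substitution E406Q and SA2Q the substitution E403Q, hyperactive forms of the 2 enzymes. SA1Q and SA2Q were measured without guide and with it (SA1Q+gRNA, SA2Q+gRNA), SA1 and SA2 only with it (SA1+gRNA, SA2+gRNA), and ctrl without it. A group with guide set against ctrl therefore differs from it in both line and guide. For SA1 and SA2 these cannot be told apart. What the guide targets, whether transgenes were induced and whether a line is a single clone is not given in the sources used here, so that the transgene and other differences between lines cannot be told apart. The design text speaks of 2 biologically independent experiments.

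RefSeq promoter entries on GRCh38.p14 were matched by symbol to 40 of the members, and the window of 15 bases before and 15 bases from the annotated start was read on the sense strand. The windows below belong to members on which the results turn, and capitals mark an unbroken run of C and T that begins with C at the annotated start and has at least 4 further pyrimidines. EIF4B, EIF3F, EEF1A1 and EEF2 carried such a run and were called lower in at least 1 comparison. EIF3K carried it and was called in none. The same held for EIF2A, EIF2S3, EIF3D, EIF3M and EIF4A2, whose windows are not shown. EEF1G lacked it at the annotated start and was called lower, and EIF5 lacked it and was called higher. The remaining members with an entry lacked it and were called in none.
EIF4B: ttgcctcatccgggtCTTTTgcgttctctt
EIF3F: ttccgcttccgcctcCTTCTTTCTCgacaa
EEF1A1: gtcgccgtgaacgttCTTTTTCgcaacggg
EEF2: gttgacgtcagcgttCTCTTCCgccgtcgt
EIF3K: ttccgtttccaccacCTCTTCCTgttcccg
EEF1G: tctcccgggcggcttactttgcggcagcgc
EIF5: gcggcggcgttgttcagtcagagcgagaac
On GRCh38.p14 these windows lie at chr12:53006441-53006470 (EIF4B, plus strand), chr11:7987322-7987351 (EIF3F, plus), chr6:73521018-73521047 (EEF1A1, minus), chr19:3985449-3985478 (EEF2, minus), chr19:38619173-38619202 (EIF3K, plus), chr11:62573877-62573906 (EEF1G, minus) and chr14:103334222-103334251 (EIF5, plus).

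The run was present in 7 of the 9 TOP members with an entry (77.8%). EEF1B2 and EEF1G were the exceptions. It was present in 3 of the 31 other members with an entry (9.68%), namely EIF2A, EIF3D and EIF4A2. Of the promoters of cytosolic ribosomal protein genes 46 of 77 held it (59.7%), and of all 35116 promoter entries of the same length 4.07% did. A match at an annotated start is a description of these letters and not a mapped transcript end in these cells.

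Sequencing depth was 43.0 to 130.1 M fragments per library, and the biological coefficient of variation over all genes was 8.67%. All counts in SA1+gRNA replicate 2 were even numbers, so its depth is 65.1 M if fragments were counted by pairs. ctrl replicate 1 and SA1Q+gRNA replicate 1 stood apart from the other 12 libraries on the first principal component, at -43.6 and -47.7 against 0.5 to 14. Results that rest on them are therefore also given without both. The 2 deaminase genes followed the labels. ADAR stood at 324 ± 23 CPM (SD, n = 2) in ctrl and 1092 ± 10 in SA1Q. ADARB1 stood at 33.3 ± 5.6 in ctrl and 1010 ± 99 in SA2Q. All 7 markers listed for 293 cells had a median above 1 CPM, as did 0 of 3 endothelial, 2 of 7 blood, 2 of 7 fibroblast and 2 of 5 other epithelial markers, with LCP1 at 147 and EPCAM at 91.4 CPM. Here CPM is the TMM-scaled count relative to library size in edgeR's usual unit, a log2 change is the fitted ratio of group means, and a gene is called when its adjusted p is under 0.05 (edgeR's quasi-likelihood test, two-sided, with Benjamini-Hochberg adjustment over the 16418 genes).

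Per transcript length, the elongation factor EEF1A1, which delivers aminoacyl-tRNA to the ribosome, was the most abundant member, with a median of 2329 RPKM over the 14 libraries. EEF2K, the kinase that inhibits EEF2, was the least abundant, at 3.93 RPKM. In the cap-binding group the helicase EIF4A1 (1033 RPKM) stood 71.7 times above EIF4E, the cap-binding protein itself (14.4 RPKM). The subunits of EIF3, which form 1 complex, spread 12.1 times, from 502 RPKM for EIF3K to 41.4 RPKM for EIF3J. Among the factors of start codon choice and subunit joining, EIF1 (311 RPKM) and EIF5B (33.2 RPKM) were the ends of the range, and in the EIF2 group EIF2S2 (127 RPKM) and EIF2A (24 RPKM) were.

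**Figure D1:**
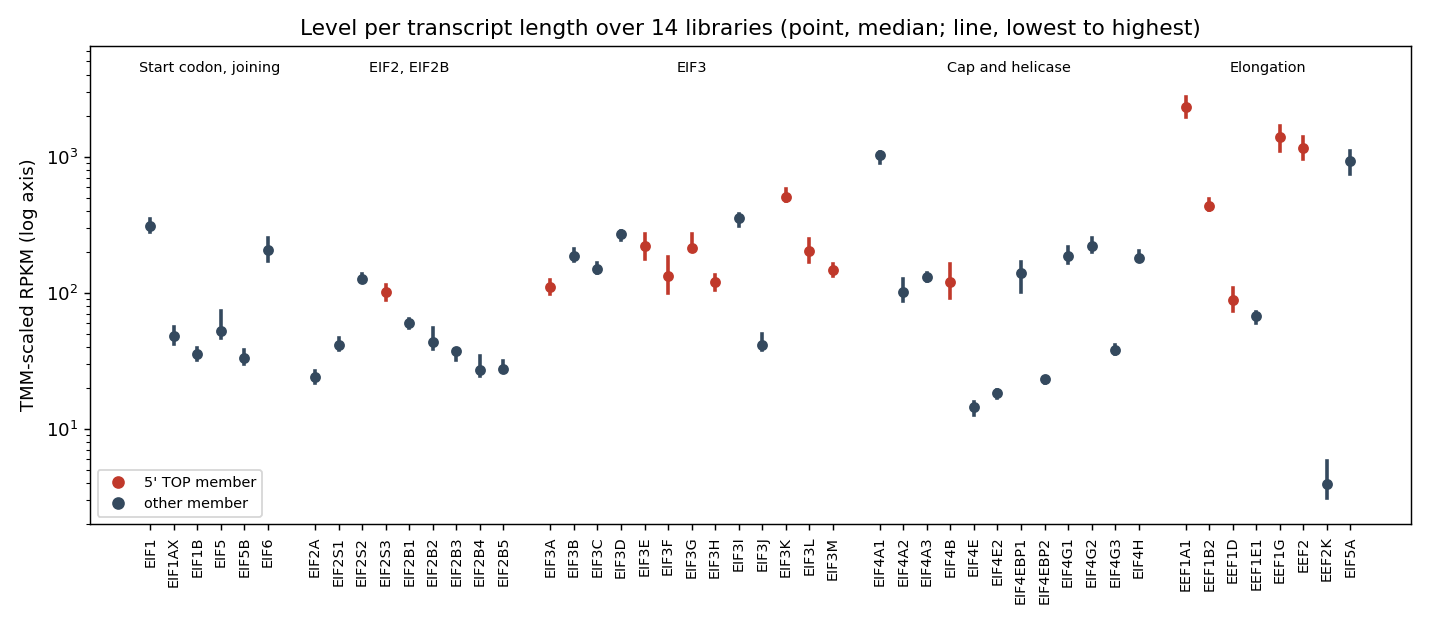
Level per transcript length (TMM-scaled RPKM, log axis) of the 48 members over the 14 libraries, by role; points are medians, lines run from the lowest to the highest library, red marks TOP members and dark blue the others. The lines are short against the distance from EEF2K at 3.93 to EEF1A1 at 2329 RPKM.

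Levels moved little across the study. The highest library exceeded the lowest by 1.12 times (EIF4EBP2) to 1.88 times (EEF2K). The median was 1.38 for the TOP members and 1.23 for the others. It was 1.45 over the tested genes with a count above 0 in every library. The filter let in genes from a minimum count of 10, while the members' lowest count was 924, so the 1.45 is not a like comparison. As a share of each library's counts, the members together took 2.76% to 2.96% in the 8 libraries of the SA1Q and SA2Q lines. The share was 3% to 3.15% in the other 6 libraries, with no overlap. Summed as TMM-scaled CPM, the members did overlap, with 27007 to 29655 in the 8 libraries and 29192 to 31877 in the other 6. EEF1A1 alone held 0.706% to 0.953% of the counts. In bulk libraries fewer cells with a transcript and less of it per cell cannot be told apart.

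Without guide, the SA1Q line had lower levels of 5 TOP members than ctrl and a higher level of EIF5. The 5 were EIF3F and EIF3L, subunits of EIF3, the scaffold of the initiation complex; EIF4B, which stimulates the EIF4A helicase; EEF1G, a subunit of the exchange factor for EEF1A1; and EEF2, which translocates the ribosome. In all 6 of 48 members were called, against 2.8% of all genes. The 5 lower calls stand beside 1.74% of all genes called lower, and the higher call beside 1.07% called higher. With all libraries the lower calls were among the 15 TOP members. A narrower TOP list of 9 genes left out EIF2S3, EIF3A, EIF3G, EIF3K, EIF3L and EIF3M. On that list 4 were called lower, and EIF3L was a lower call outside it. Without ctrl replicate 2 the others EIF2B2 and EIF4EBP1 were called lower too and none was called higher, and 4.88% of all genes were called. The single higher call became 4 among the other members in DESeq2 and 4 with an offset on transcript length, where 9 members were called in each, against 6.48% and 5.85% of all genes.

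EIF4B (hg19 chr12:53400062-53435993) had 563 and 557 CPM in ctrl, 396 and 394 in SA1Q, 371 and 390 in SA1Q+gRNA, 491 and 479 in SA2Q, 478 and 476 in SA2Q+gRNA, 607 and 577 in SA1+gRNA, and 653 and 595 in SA2+gRNA. The 4 libraries of the SA1Q line were lowest, the 4 of the SA2Q line came next, and the other 6 lay above both, with no overlap. EIF4B fell by 0.50 in SA1Q against ctrl on the log2 scale (SE 0.07, adjusted p = 0.0025 in edgeR), and it stayed called when any of the 4 libraries was left out.

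EIF3L (chr22:38245379-38284789) had 515 and 481 CPM in ctrl, 369 and 370 in SA1Q, 379 and 353 in SA1Q+gRNA, 423 and 405 in SA2Q, 417 and 430 in SA2Q+gRNA, 509 and 493 in SA1+gRNA, and 508 and 502 in SA2+gRNA. It showed the same order of lines as EIF4B, again with no overlap. EIF3L fell by 0.43 in SA1Q against ctrl (SE 0.07, adjusted p = 0.0077 in edgeR).

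EIF3F (chr11:8008867-8017719) had 229 and 178 CPM in ctrl, 124 and 128 in SA1Q, 158 and 126 in SA1Q+gRNA, 158 and 156 in SA2Q, 168 and 164 in SA2Q+gRNA, 186 and 193 in SA1+gRNA, and 196 and 192 in SA2+gRNA. ctrl replicate 1 was the highest library, and SA1Q+gRNA replicate 1 reached the level of the SA2Q line. EIF3F fell by 0.69 in SA1Q against ctrl (SE 0.11, adjusted p = 0.0077 in edgeR), the largest change among the members in that comparison.

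Of the 13 EIF3 subunits, the 8 TOP subunits had a median log2 change of -0.05 in SA1Q against ctrl, with 2 called lower, and the 5 others one of 0.09, with 0 called in edgeR and 1 at an unadjusted p under 0.05. EIF3K, a small peripheral subunit, had 442 and 428 CPM in ctrl and 415 and 424 in SA1Q, groups that did not overlap, with a log2 change of -0.05 (SE 0.08) that missed the threshold. EIF3A, the largest subunit of the complex, had 522 and 627 CPM in ctrl and 580 and 648 in SA1Q, with overlap between the groups.

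EEF1G (chr11:62327073-62341460) had 2588 and 2205 CPM in ctrl, 1723 and 1683 in SA1Q, 2022 and 1755 in SA1Q+gRNA, 2092 and 2075 in SA2Q, 2130 and 2153 in SA2Q+gRNA, 2453 and 2496 in SA1+gRNA, and 2463 and 2467 in SA2+gRNA. Its order by line was that of EIF4B and EIF3L. EEF1G fell by 0.49 in SA1Q against ctrl (SE 0.08, adjusted p = 0.0082 in edgeR).

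EEF2 (chr19:3976054-3985461) had 3979 and 4335 CPM in ctrl, 3055 and 3199 in SA1Q, 4076 and 3253 in SA1Q+gRNA, 3487 and 3223 in SA2Q, 3441 and 3461 in SA2Q+gRNA, 3832 and 4285 in SA1+gRNA, and 4381 and 4133 in SA2+gRNA. SA1Q+gRNA replicate 1 was the exception among the 8 libraries of the SA1Q and SA2Q lines, lying inside the range of the other 6. EEF2 fell by 0.41 in SA1Q against ctrl (SE 0.10, adjusted p = 0.036 in edgeR).

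EEF1A1 had 9113 and 7935 CPM in ctrl, 7590 and 7600 in SA1Q, 7539 and 6903 in SA1Q+gRNA, 8110 and 8164 in SA2Q, 8195 and 8306 in SA2Q+gRNA, 9515 and 9187 in SA1+gRNA, and 8994 and 9552 in SA2+gRNA. The 4 SA1Q-line libraries were below the other 10, though ctrl replicate 2 was close to them. The change in SA1Q against ctrl, -0.17 on the log2 scale (SE 0.07), missed the threshold (adjusted p = 0.22 in edgeR). EEF1A1 has 50 named pseudogenes, and how fragments with several matches were counted is not given in the sources used here, so its level is uncertain.

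EIF5 (chr14:103800339-103811361), which triggers GTP hydrolysis on EIF2 at the start codon, had 339 and 295 CPM in ctrl, 428 and 423 in SA1Q, 394 and 433 in SA1Q+gRNA, 278 and 287 in SA2Q, 323 and 296 in SA2Q+gRNA, 339 and 288 in SA1+gRNA, and 293 and 287 in SA2+gRNA. The 4 SA1Q-line libraries were the 4 highest. EIF5 rose by 0.42 in SA1Q against ctrl (SE 0.09, adjusted p = 0.028 in edgeR). The gene hosts the small nucleolar RNA SNORA28.

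**Figure D2:**
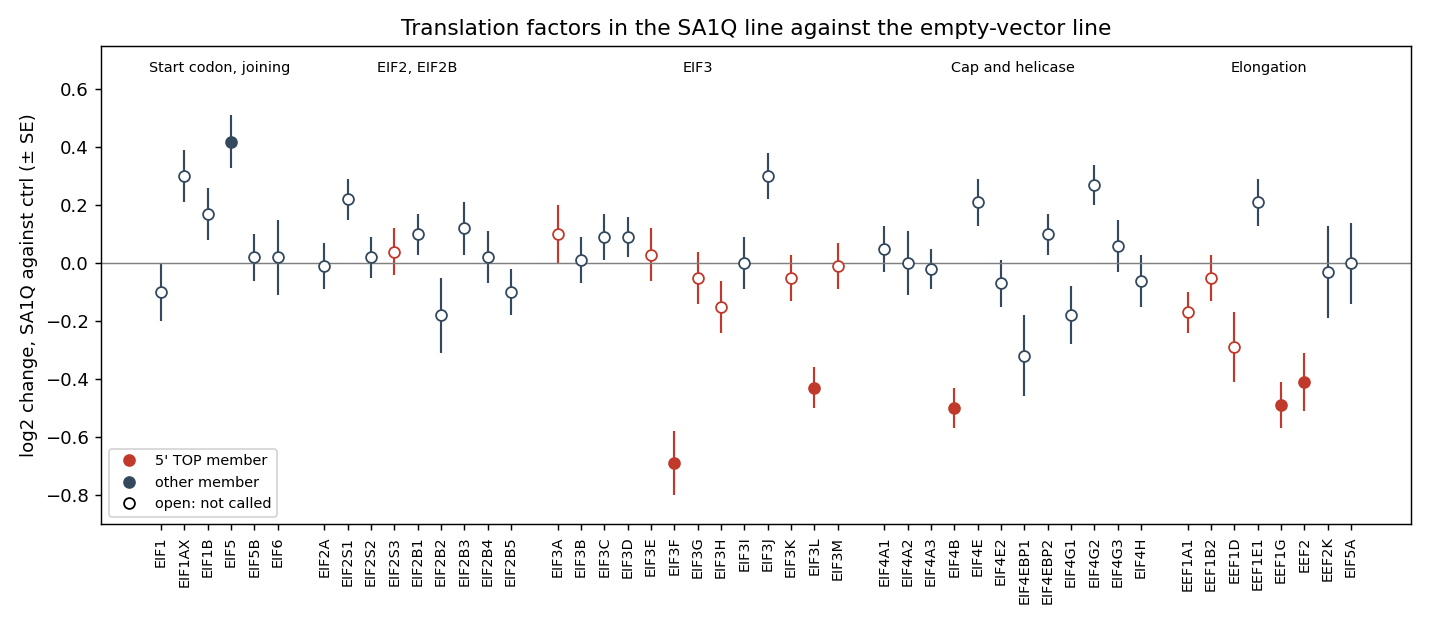
Log2 change with its SE of each of the 48 members in SA1Q against ctrl, by role; red marks TOP members, dark blue the others, and filled points are called. The 5 filled red points lie between -0.69 and -0.41, and EIF5 at 0.42 is the filled blue point.

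The calls in SA1Q against ctrl depended on having both SA1Q libraries. Without SA1Q replicate 1, and likewise without SA1Q replicate 2, far fewer of all genes were called. Among the members EIF4B alone stayed called. The other 5 kept their direction, with log2 changes from -0.71 to -0.38 for the 4 lower genes and of 0.41 and 0.44 for EIF5. EIF5 and EEF2 also lost the call without ctrl replicate 2 (adjusted p = 0.066 and 0.065 in edgeR). Without ctrl replicate 1 and SA1Q+gRNA replicate 1 together, 11 members were called, the 6 above among them, against 7.32% of all genes. Of the 33 others 5 were then called higher and 1, EIF4G1, lower.

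**Figure D3:**
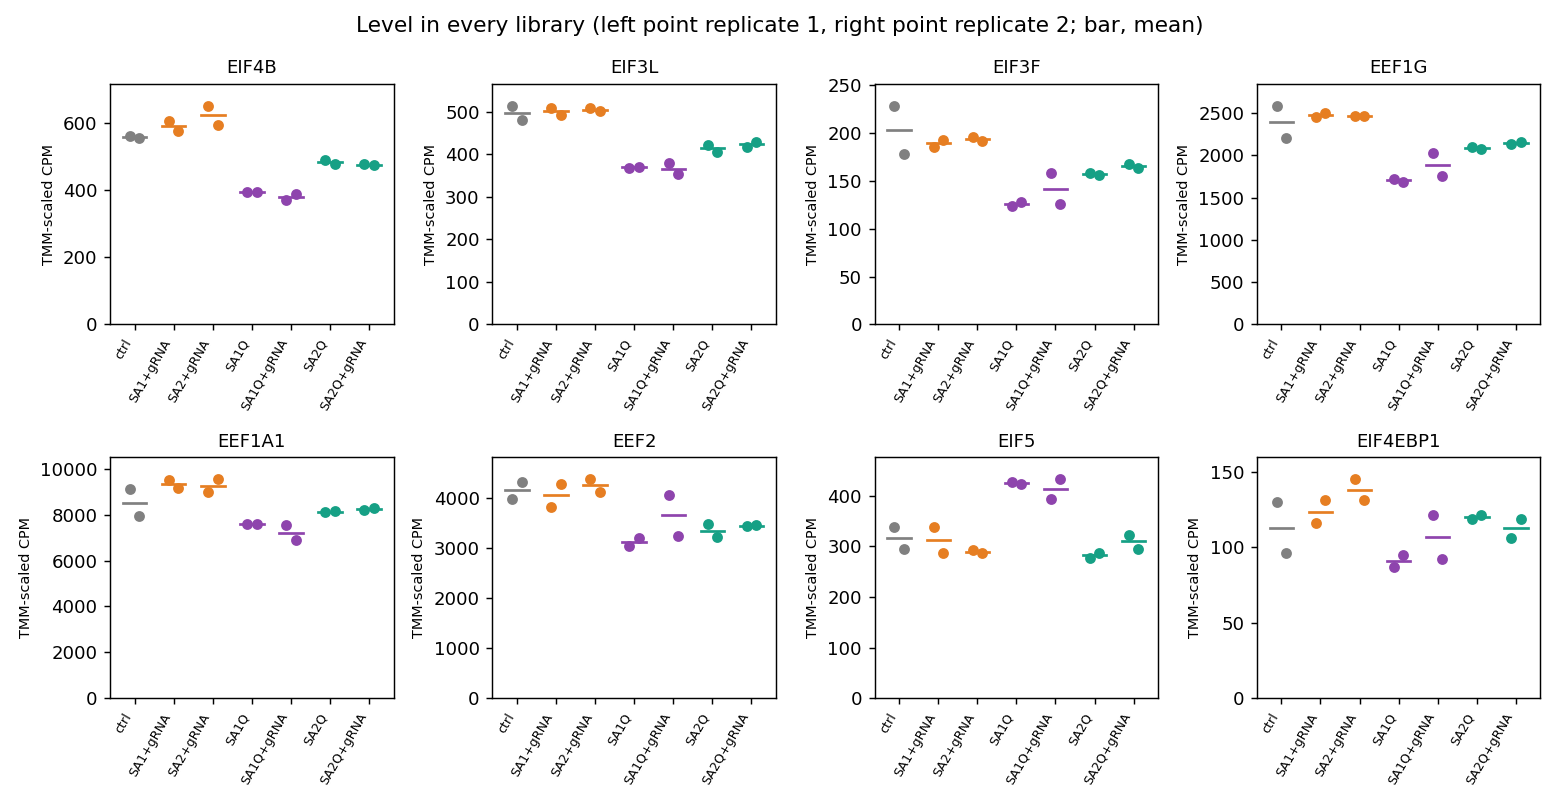
TMM-scaled CPM of 8 members in every library (axes from 0; left point replicate 1, right point replicate 2, bar the mean), with ctrl in grey, SA1 and SA2 with guide in orange, the SA1Q line in purple and the SA2Q line in green. EIF4B, EIF3L and EEF1G step down from grey and orange to green to purple, whereas EIF5 is high in purple.

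The factors that bind the cap, and those that carry the initiator tRNA, showed no called change. EIF4E had 66.1 and 61 CPM in ctrl and 76 and 70.9 in SA1Q, groups that did not overlap, with a log2 change of 0.21 (adjusted p = 0.17 in edgeR). EIF4EBP1, the repressor that binds EIF4E, had 130 and 95.9 CPM in ctrl and 86.8 and 94.5 in SA1Q, with a log2 change of -0.32 (adjusted p = 0.21 in edgeR). Its ctrl libraries differed from each other by more than ctrl replicate 2 differed from SA1Q.

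EIF2S1, the subunit of EIF2 that stress kinases phosphorylate, had 162 and 159 CPM in ctrl and 194 and 179 in SA1Q, with a log2 change of 0.22 (adjusted p = 0.12 in edgeR). None of the 9 genes of EIF2, EIF2A and the exchange factor EIF2B was called in any of the 11 comparisons. The smallest unadjusted p in this group was that of EIF2S3, the subunit that binds GTP and the initiator tRNA. EIF2S3 had 306 and 333 CPM in SA1Q+gRNA against 397 and 376 in SA1+gRNA, with no overlap and a log2 change of -0.28 (adjusted p = 0.12 in edgeR).

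With guide, the SA1Q line again had lower EIF4B, EIF3L and EIF3F than ctrl. These 3 of 48 members were called, against 1.04% of all genes, and all 3 were TOP members, beside 0.621% of all genes called lower. On the narrower TOP list 2 were called lower, with EIF3L outside it. On the log2 scale EIF4B fell by 0.56 (SE 0.07, adjusted p = 0.0016 in edgeR), EIF3L by 0.44 (adjusted p = 0.0069) and EIF3F by 0.52 (adjusted p = 0.04). This comparison shares its ctrl libraries with the one before. The call of EIF3F was lost without ctrl replicate 1 (-0.33, adjusted p = 0.14) and without SA1Q+gRNA replicate 2 (-0.37, adjusted p = 0.085), and 5 members were called without ctrl replicate 2, against 1.07% of all genes. Without ctrl replicate 1 and SA1Q+gRNA replicate 1 together 7 members were called, against 1.54% of all genes.

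Against the SA1 line, also with guide, the SA1Q line had lower levels of 5 TOP members, in a comparison without ctrl libraries. On the narrower TOP list 4 were called lower, with EIF3L outside it. EIF4B fell by 0.64 (SE 0.07, adjusted p = 0.00058 in edgeR), EIF3L by 0.45 (adjusted p = 0.0088), EEF1G by 0.39 (adjusted p = 0.041), EEF1A1 by 0.37 (adjusted p = 0.03) and EIF3E by 0.43 (adjusted p = 0.035). The 5 called members stand against 0.962% of all genes, and 0.512% called lower. EIF3E, another EIF3 subunit, had 268 and 280 CPM in SA1Q+gRNA and 405 and 334 in SA1+gRNA. Its SA1+gRNA replicate 1 was the highest of the 14 libraries, and EIF3E in SA1Q without guide, at 353 and 313 CPM, was not low.

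Without SA1+gRNA replicate 1, EIF4B was the 1 member called in this comparison (0.101% of all genes), and without SA1+gRNA replicate 2 the called members were EIF3E, EIF3L and EIF4B. Without SA1Q+gRNA replicate 2, 8 members were called, against 12.4% of all genes. Without ctrl replicate 1 and SA1Q+gRNA replicate 1 together 9 were called, against 1.32% of all genes. The gap between the SA1Q and SA1 libraries is one of line and of allele together, and the 2 cannot be told apart.

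The SA2Q line lay between the SA1Q line and the rest for several TOP members, but 0 of 48 members were called in SA2Q against ctrl (0.0853% of all genes), with 6 at an unadjusted p under 0.05 in edgeR and 0 called in DESeq2. The values were -0.37 for EIF3F (adjusted p = 0.3 in edgeR), -0.31 for EEF2 (adjusted p = 0.3), -0.27 for EIF3L (adjusted p = 0.22) and -0.21 for EIF4B (adjusted p = 0.36). In SA2Q+gRNA against ctrl 0 were called (0.067% of all genes), with 6 at an unadjusted p under 0.05 in edgeR and 0 called in DESeq2. Without the 2 libraries that stood apart, 3 and 4 members were called in these comparisons, against 3.42% and 5.11% of all genes.

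In SA2Q+gRNA against SA2+gRNA 0 members were called in edgeR (0.0122% of all genes), 6 had an unadjusted p under 0.05, and DESeq2 called 1, EIF4B. EIF4B differed by -0.39 (SE 0.07, adjusted p = 0.13 in edgeR) with no overlap between its libraries. Of the 15 TOP members 13 had non-overlapping lower libraries in SA2Q+gRNA, as did 7 of the 33 others and 24.1% of all genes.

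The SA1Q line was compared with the SA2Q line directly, over 4 libraries each. EIF5 was higher by 0.50 (SE 0.07, adjusted p = 0.0014 in edgeR), EIF4B was lower by a log2 change of -0.31 (SE 0.05, adjusted p = 0.0051), and EEF1G was lower by -0.24 (SE 0.06, adjusted p = 0.044). These 3 of 48 members stand against 2.75% of all genes, with 1.03% called higher and 1.72% called lower. The call of EEF1G was lost on leaving out any library but SA1Q+gRNA replicate 1, while EIF5 and EIF4B stayed called without any 1 of the 8. Without SA1Q+gRNA replicate 1, 6 members were called, against 4.38% of all genes, and without it and ctrl replicate 1 together 11 were, against 11.8% of all genes.

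In the lines whose fusion lacks the hyperactive substitution, measured only with guide, no member was called against ctrl, measured without it. In SA1+gRNA against ctrl 0 members were called (0.0426% of all genes), with 1 at an unadjusted p under 0.05 in edgeR and 0 called in DESeq2. In SA2+gRNA against ctrl 0 were called (0.104% of all genes), with 3 at an unadjusted p under 0.05 in edgeR and 0 called in DESeq2. EIF4B differed from ctrl by 0.08 and 0.16 (SE 0.07), and EIF3L by 0.01 and 0.02 (SE 0.07), in SA1+gRNA and SA2+gRNA. Without the 2 libraries that stood apart, 2 members were called in each, against 2.3% and 2.84% of all genes. EEF1A1 was higher and called in both.

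Adding the guide to the same line changed no member past the threshold. In SA1Q+gRNA against SA1Q 0 members were called (0% of all genes), with 5 at an unadjusted p under 0.05 in edgeR and 0 called in DESeq2, and 4 (EIF3G, EIF3K, EEF1D and EEF2) were called without SA1Q+gRNA replicate 2, when 12.6% of all genes were. In SA2Q+gRNA against SA2Q 0 were called (0% of all genes), with 0 at an unadjusted p under 0.05 in edgeR and 0 called in DESeq2. The guide effect in the SA1Q line minus that in the SA2Q line was called for 0 members (0% of all genes), with 3 at an unadjusted p under 0.05 in edgeR and 0 in DESeq2. EIF4B differed by -0.05 (SE 0.07) with the guide in the SA1Q line and by -0.02 (SE 0.07) in the SA2Q line.

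Beside each other, the TOP members lay lower than the others in the lines with a hyperactive fusion. This is a description, since the list was made with earlier results of these data known. In SA1Q against ctrl the median log2 change was -0.15 over the 15 TOP members and 0.02 over the 33 others, against 0 over all genes tested, and 12 of 15 and 10 of 33 lay below 0. The SA1Q libraries lay below both ctrl libraries for 9 of the 15 TOP members, 3 of the 33 others and 22.9% of all genes. In SA1Q+gRNA against ctrl the medians were -0.18 and 0.05, with -0.14 and 0.15 without ctrl replicate 1, and in SA1Q+gRNA against SA1+gRNA -0.27 and 0. In SA2Q against ctrl they were -0.08 and 0.02, but -0.03 and 0.06 without ctrl replicate 1 and -0.20 and -0.03 without ctrl replicate 2. In SA2Q+gRNA against ctrl they were -0.05 and 0.06, but -0.15 and 0.02 without ctrl replicate 2, and in SA2Q+gRNA against SA2+gRNA -0.09 and 0.06. For the 2 fusions without the substitution they were 0.05 and 0.07 (SA1+gRNA) and 0.03 and 0.03 (SA2+gRNA) against ctrl, and without ctrl replicate 1 they were 0.09 and 0.15, and 0.11 and 0.10. Without ctrl replicate 2 they were 0.01 and 0.02 for SA1+gRNA and turned to -0.01 and -0.01 for SA2+gRNA.

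The TOP members differed among themselves. EIF3A, EIF3E and EIF2S3 had log2 changes of 0.10, 0.03 and 0.04 in SA1Q against ctrl, and EEF1B2, which is the nucleotide-exchange subunit for EEF1A1, had -0.05. The TOP median in SA1Q against ctrl was -0.05 and that of the others 0.10 without ctrl replicate 1, and the same without it and SA1Q+gRNA replicate 1 together. Without ctrl replicate 2 they were -0.26 and 0.02, and without SA1Q replicate 2 -0.10 and 0.04. The TOP median minus that of the other members was -0.15 without ctrl replicate 1, -0.17 with all libraries and -0.27 without ctrl replicate 2.

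**Figure D4:**
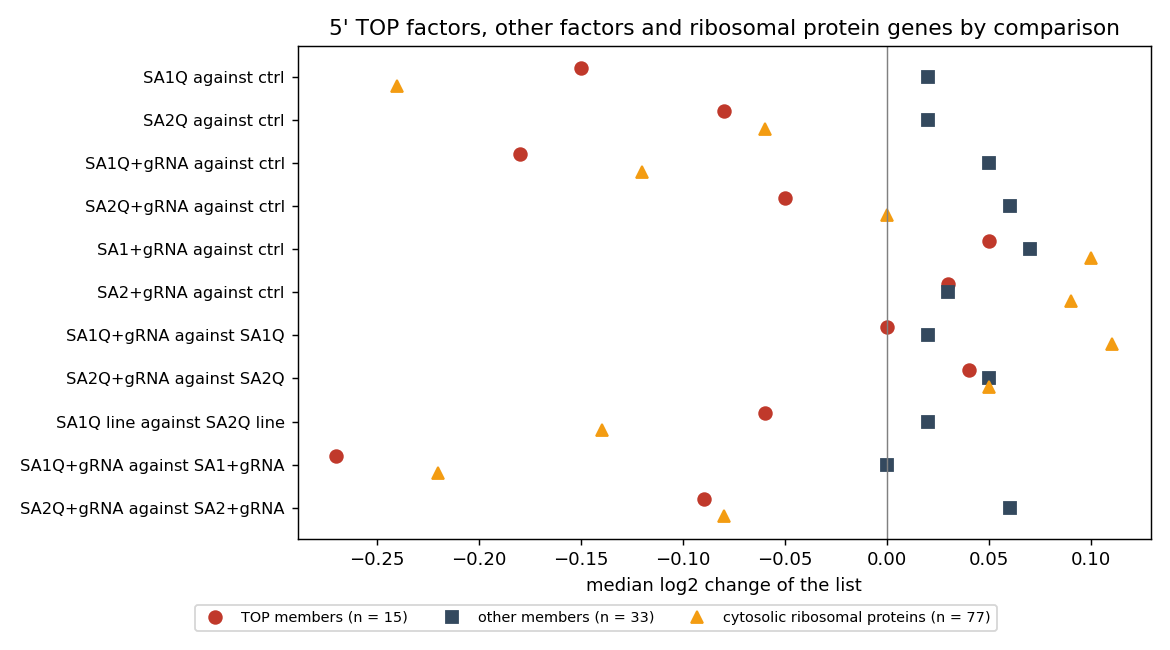
Median log2 change of the 15 TOP members (red circles), the 33 other members (dark blue squares) and 77 cytosolic ribosomal protein genes (orange triangles) in 11 comparisons. Red and orange lie left of blue where SA1Q-line libraries are compared with ctrl, SA1+gRNA or the SA2Q line. They also lie left of blue where SA2Q-line libraries are compared with ctrl or SA2+gRNA. In SA2+gRNA against ctrl they lie close to blue.

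The cytosolic ribosomal protein genes, the classic TOP genes, gave medians of -0.24 in SA1Q against ctrl, -0.12 in SA1Q+gRNA against ctrl, -0.22 in SA1Q+gRNA against SA1+gRNA and -0.06 in SA2Q against ctrl. In SA2Q+gRNA, SA1+gRNA and SA2+gRNA against ctrl the medians were 0, 0.10 and 0.09. Called lower were 9 of the 77 in SA1Q against ctrl (1.74% of all genes), 3 in SA1Q+gRNA against ctrl (0.621%), 11 in SA1Q+gRNA against SA1+gRNA (0.512%) and 0 in SA2Q against ctrl, where 6 had an unadjusted p under 0.05 in edgeR and DESeq2 called 0. With all libraries, none was called higher in these 4 comparisons. This changed without ctrl replicate 1 and SA1Q+gRNA replicate 1 together, when more of all genes were called against ctrl. Some ribosomal protein genes were then called higher and others lower in SA1Q and SA1Q+gRNA against ctrl. In SA2Q, SA2Q+gRNA, SA1+gRNA and SA2+gRNA against ctrl, those called were all higher. The medians against ctrl moved with the ctrl library used. They were -0.07 in SA1Q, 0.03 in SA1Q+gRNA and 0.10 in SA2Q without ctrl replicate 1, and without ctrl replicate 2 they were -0.37, -0.27 and -0.20. Without ctrl replicate 1 and SA1Q+gRNA replicate 1 together, they were -0.07 in SA1Q and -0.05 in SA1Q+gRNA. In that setting they lay above 0 in the other lines, at 0.10 in SA2Q, 0.15 in SA2Q+gRNA, 0.27 in SA1+gRNA and 0.23 in SA2+gRNA. In SA1Q+gRNA against SA1+gRNA the median was -0.30 without SA1Q+gRNA replicate 1 and -0.17 without SA1Q+gRNA replicate 2.

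Over the 7 groups, the lowest group mean belonged to SA1Q or SA1Q+gRNA for 13 of the 15 TOP members, 6 of the 33 others, 74 of the 77 ribosomal protein genes and 38.1% of all genes tested. This count takes either group and does not mean that the whole line was low. EIF3G and EIF3K were lowest in SA1Q (234 and 419 CPM) but highest of the 7 groups in SA1Q+gRNA (277 and 476 CPM). All 4 SA1Q-line libraries lay below the other 10 for EIF3L, EIF4B, EEF1A1 and EEF1G, a pattern of 1.94% of all genes. They lay above the other 10 for EIF5 and EIF4G2, a pattern of 1.67% of all genes. The full order, SA1Q line under SA2Q line under the other 6 libraries, held for EIF3L, EIF4B and EEF1G and for 22 of the 16418 genes in all.

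EIF4G2, an EIF4G relative that lacks the part that binds EIF4E, had 972 and 993 CPM in SA1Q, 932 and 963 in SA1Q+gRNA, and 858 and 777 in ctrl. The remaining 8 libraries lay between 790 and 909 CPM, so that the SA1Q line stood just above them. Its log2 change in SA1Q against ctrl was 0.27 (adjusted p = 0.057 in edgeR), short of the threshold.

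Grouped by the start sequence instead of by the TOP list, the 10 members with the run had a median log2 change of -0.03 in SA1Q against ctrl, with 3 called lower, and the 30 without it one of 0.02, with 1 called lower (EEF1G) and 1 called higher (EIF5), beside 1.74% of all genes called lower and 1.07% higher. In SA1Q+gRNA against SA1+gRNA the medians were -0.24 and 0. The grouping by annotated starts leaves out EIF3L and EIF3E, which had no entry, and puts EEF1G with the genes without a run. EIF2A, EIF3D and EIF4A2, which have the run but were not in the TOP list, had changes of -0.01, 0.09 and 0 in SA1Q against ctrl.

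Transcript length moved with these values. The TOP members were shorter than the others, with medians of 1538 and 2558 nucleotides. Over the 48 members the log2 change in SA1Q against ctrl had a Spearman correlation with length of 0.28, and over all genes 0.17, both across genes of the same libraries, which are not independent replicates. With an offset on transcript length in the fit, the same 5 TOP members stayed called lower in that comparison. The TOP median was then -0.09 and that of the others 0.06, 4 other members were called higher, and 5.85% of all genes were called. The difference between replicates 1 and 2 had a correlation with length of -0.37 in ctrl and in SA1Q+gRNA.

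Other genes of the translation machinery, a list of 50 with termination and recycling factors, EIF2 kinases and mTORC1 components, were set beside the members. In SA1Q against ctrl 3 were called, 2 higher and 1 lower, against 2.8% of all genes called, 1.07% higher and 1.74% lower. The TOP gene TPT1 fell by 0.57 (SE 0.08, adjusted p = 0.0023 in edgeR), and its log2 change was -0.61 in SA1Q+gRNA against ctrl, -0.39 between the lines and -0.68 in SA1Q+gRNA against SA1+gRNA, called each time. The RNA helicase DDX3X rose by 0.35 (adjusted p = 0.026 in edgeR) and the recycling factor ABCE1 rose by 0.36 (adjusted p = 0.033). Between the SA1Q and SA2Q lines 4 of the 50 were called, against 2.75% of all genes, with 1.03% called higher and 1.72% lower. They were TPT1, DDX3X (0.24), EEF1A2, an EEF1A1 paralog (-0.39), and PELO, a ribosome rescue factor (-0.29). PELO is named here outside the naming rule. The median over the 50 was 0 in SA1Q against ctrl.

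Some members are uncertain for reasons of counting. EIF3C has a near-identical copy, EIF3CL, EIF4A1 lies within the readthrough gene SENP3-EIF4A1 and has 13 named pseudogenes, and 10 members overlap another gene in hg19. The libraries were stranded, but the use of strand in counting is not given in the sources used here. Of the 8 members called in any comparison none overlapped another gene with an entry of that size. EIF5 holds SNORA28 and EEF2 holds SNORD37. Named pseudogenes of the called members numbered 50 for EEF1A1, 9 for EIF4B, 8 for EEF1G and 4 for EIF3E. EIF3F and EIF3L had 3 each, EIF5 had 2 and EEF2 had 0.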

How the data were processed

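Polyadenylated RNA from 14 samples of 1 cell line was sequenced in pairs with a stranded kit, per the labels' protocols. Trim Galore, STAR 2.4.2a and hg19 are named in the submitters' processing notes, and the tool that counted fragments is not given in the sources used here. The deposited count column held whole fragments per transcript, and the deposited FPKM column, scaled by the authors to size and library total per the file headers, served only in an alternative. Of 45595 accessions 98.6% were named, and the 887 entries without a name (0.81% of counts) and 2309 entries under 200 nucleotides were left out. The test on counts was that of edgeR 4.0.16 under R 4.3.3 (TMM scaling, filterByExpr with a minimum count of 10, 1 quasi-likelihood fit over 14 libraries with 7 group means and 7 residual degrees of freedom, no covariate), checked on simulated data. In simulated counts for SA1Q against ctrl, 3.23% of 1.25-fold changes, 52.9% of 1.5-fold changes and 77.9% of 2-fold changes were called. Small changes can therefore go uncalled. The changed genes were drawn at random from all tested, so these shares are not those of the members. With 2 libraries per group, which may share technical steps, p-values measure the spread between these samples only.

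The 48 members, the TOP list and the other lists were chosen with earlier results of these data known. Per-library values were given for members called in a comparison, for EEF1A1, EEF2, EIF4E, EIF4EBP1 and EIF2S1, and for the member with the smallest p in a role group with no call; EIF3A, EIF3K and EIF4G2 were added after their values were seen. Alternatives were DESeq2 1.42.0, no filter, summed transcripts, limma 3.58.1 on log2(FPKM + 0.1), a replicate block, a length offset, halved counts for SA1+gRNA replicate 2, a narrow TOP list, and leaving out libraries, the last applied to the ribosomal protein medians after seeing the data. Markers of other cell types summed to 0.536 to 1.05 CPM (endothelium), 7.34 to 11.3 (fibroblast), 112 to 166 (blood) and 83.9 to 102 (other epithelium) over the libraries. RefSeq sequences are those of GRCh38.p14.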

Additional observations from a re-analysis of the deposited data

How the results depend on the processing

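No called member, and none of the 6 differences below between TOP and other medians, changed sign under an alternative run; some medians near 0 did, as given with them above. EIF4B stayed called under every alternative of its 4 comparisons, and EIF5 under every alternative of the line comparison. Shares of all genes called stand in parentheses. DESeq2 called 9 members in SA1Q against ctrl (6.48%), 5 in SA1Q+gRNA against ctrl (2.91%), 5 between the SA1Q and SA2Q lines (4.88%) and 1 in SA2Q+gRNA against SA2+gRNA (0.347%). Without a filter 5 were called in SA1Q+gRNA against ctrl (1.24%) and 1 in SA2Q+gRNA against SA2+gRNA (0.0687%). With the length offset 9 were called in SA1Q (5.85%), 1 in SA2Q (0.329%) and 5 in SA1Q+gRNA (2.65%) against ctrl, 5 between the lines (4.73%), 11 in SA1Q+gRNA against SA1+gRNA (3%) and 1 in SA2Q+gRNA against SA2+gRNA (0.0975%), and limma on FPKM called 5 between the lines (2.44%). Without ctrl replicate 1 and SA1Q+gRNA replicate 1 together the counts against ctrl were 11 for SA1Q (7.32%) and 7 for SA1Q+gRNA (1.54%), 3 for SA2Q (3.42%) and 4 for SA2Q+gRNA (5.11%), and 2 each for SA1+gRNA (2.3%) and SA2+gRNA (2.84%). They were 11 between the lines (11.8%), 9 in SA1Q+gRNA against SA1+gRNA (1.32%) and 5 in SA2Q+gRNA against SA2+gRNA (0.716%). Leaving out 1 library in turn gave 1 to 7 in SA1Q (0.226% to 4.88%) and 2 to 5 in SA1Q+gRNA (0.887% to 2.75%) against ctrl, 0 to 4 in SA1Q+gRNA against SA1Q (0% to 12.6%), 2 to 6 between the lines (0.506% to 4.38%) and 1 to 8 in SA1Q+gRNA against SA1+gRNA (0.101% to 12.4%). The cause of these shifts was not tested.

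The TOP median minus that of the other members was -0.17 in SA1Q against ctrl, -0.10 in SA2Q against ctrl, -0.23 in SA1Q+gRNA against ctrl, -0.08 between the lines, -0.26 in SA1Q+gRNA against SA1+gRNA and -0.15 in SA2Q+gRNA against SA2+gRNA. With the narrow TOP list it was -0.31 (SA1Q) and -0.29 (SA1Q+gRNA) against ctrl, -0.16 between the lines, -0.37 and -0.18. The length offset gave -0.15 in SA1Q against ctrl and -0.05 between the lines. Without ctrl replicate 1 and SA1Q+gRNA replicate 1 together it was -0.15, -0.26, -0.10 and -0.24 in SA1Q and SA1Q+gRNA against ctrl, between the lines and in SA1Q+gRNA against SA1+gRNA. Leaving out 1 library in turn gave -0.27 to -0.14 (SA1Q), -0.17 to -0.09 (SA2Q) and -0.29 to -0.24 (SA1Q+gRNA) against ctrl, -0.11 to -0.07 between the lines, -0.33 to -0.23 in SA1Q+gRNA against SA1+gRNA and -0.19 to -0.13 in SA2Q+gRNA against SA2+gRNA.

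The replicate numbers are not said to pair the samples. Of 21 pairs of groups, deviations of same-numbered libraries correlated above 0.1 in 1 (range -0.14 to 0.44). That pair was ctrl and SA1Q+gRNA, whose replicate 1 libraries stood apart on the first principal component. Whether they share a technical step was not tested. With a replicate block 5 members were called in SA1Q against ctrl (1.85% of all genes) and 3 in SA1Q+gRNA against ctrl (0.761%). The block gave 2 between the lines (1.85%) and 5 in SA1Q+gRNA against SA1+gRNA (0.573%). It gave 0 in the other comparisons (at most 0.0792% of all genes). Where leaving out a library left 1 in a group, that library was assumed to vary like those of the other groups. The lowest count of a member was 924, and each group mean rests on 2 libraries.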
